A study of Mus musculus with 31 samples.

Results

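Transcripts of 30 genes of cholesterol synthesis, uptake, storage and efflux were followed in mouse monocytes. They were 18 enzymes of the synthesis pathway and 12 genes of its regulation, of intracellular sterol transport, of the liver X receptors (LXR), of efflux and of storage. The genes were taken by symbol from a count table of 24411 entries, of which 18544 had a count and 12337 passed a filter on low counts and were tested. All 30 genes were found in the table and passed the filter, and none was below 1.899 CPM in any library. The cells were Ly6C-hi monocytes of C57BL/6J mice, sorted by flow cytometry as CD11b+, Ly6G-, Ly6Chi and MHC-II-, so that neutrophils and MHC class II-bearing cells were gated out. The 3 groups, with 3 RNA-seq libraries each, were blood monocytes of healthy animals (healthy blood), monocytes from the blood of mice carrying subcutaneous tumors of Lewis lung carcinoma, LLC (LLC blood), and from the LLC tumors themselves (LLC tumor). LLC is a transplantable mouse lung carcinoma cell line, here grown under the skin and not in the lung. The labels give no age, sex or pooling of the mice and do not say that libraries of one group came from separate mice, so p-values measure the spread between these libraries, which may be technical.

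Cells keep their cholesterol level by opposing transcription programs. When sterol in the endoplasmic reticulum is low, the escort protein SCAP carries the membrane-bound factor SREBP2 to the Golgi, where it is cut free to switch on the synthesis enzymes, and the INSIG proteins hold SCAP back when sterol is plentiful. Oxysterols and pathway intermediates such as desmosterol activate LXR, which switches on the exporters ABCA1 and ABCG1 and the ubiquitin ligase MYLIP (also called IDOL), which limits the uptake of lipoprotein cholesterol. Macrophages, into which monocytes develop in tissue, take up lipid from dying cells and depend on export and on esterification for its removal.

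SREBP proteins bind sterol regulatory elements near the starts of target genes, often beside CCAAT boxes bound by NF-Y. RefSeq promoter windows (GRCm38.p6, from 250 bases before to 50 bases after an annotated start) were held for 15 of the 18 enzymes and 10 of the other 12 genes, and were searched on both strands. The sterol element core TCACNCCAC was found in 1 of the 15 enzyme genes (6.67%), Hmgcs1, against 1.39% of the 9393 tested genes with a window and 1.44% of all 27025 genes with one. Its shorter form TCACNCCA, which every core contains, was found in Hmgcs1 and Msmo1 (2 of 15, 13.3%) and, among the other genes, in Srebf2 (1 of 10), against 4.46% and 4.97%. CCAAT was found in 14 of the 15 enzyme genes (93.3%) and in 6 of the other 10, against 42.9% of the tested genes with a window and 41.1% of all. Some genes had more than 1 window, and a match in any of them counted. The enzyme gene without a CCAAT box was Acat2, and the 14 with one included the 3 enzyme genes that were lower in tumor. Of these, Dhcr7 held the box in window 3 but not in windows 1 and 2. Pmvk, which rose, held it in window 1 but not in window 2. The direct repeat bound by LXR with its partner RXR was searched only as exact copies of GGTCA with 5 letters between them. It was found in none of these 25 genes and in 0.0426% of the tested genes (4 of 9393). Copies with other letters were not counted, and so rare a match cannot show whether these 25 genes hold or lack an LXR element. The matches given here are of letters in short windows, not binding sites. Upstream stretches, up to the first base before the annotated gene, are shown for the 3 genes with a sterol element and for Hsd17b7, the enzyme gene with the largest rise in tumor. They lie at chr13:119690101-119690350 (+ strand) for Hmgcs1, chr8:64733579-64733828 (- strand) for Msmo1, chr15:82147019-82147268 (+ strand) for Srebf2 and chr1:169969243-169969455 (- strand) for Hsd17b7, and are written 5′ to 3′ along the gene's strand. Capitals mark the sterol element (the run that opens with TCAC) and the CCAAT boxes (CCAAT, or ATTGG where the box lies on the other strand).
Hmgcs1: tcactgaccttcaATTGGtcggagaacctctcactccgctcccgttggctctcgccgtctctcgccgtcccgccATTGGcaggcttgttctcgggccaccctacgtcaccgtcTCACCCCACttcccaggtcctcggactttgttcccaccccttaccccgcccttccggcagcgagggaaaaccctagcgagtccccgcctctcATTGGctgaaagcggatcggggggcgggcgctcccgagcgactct
Msmo1: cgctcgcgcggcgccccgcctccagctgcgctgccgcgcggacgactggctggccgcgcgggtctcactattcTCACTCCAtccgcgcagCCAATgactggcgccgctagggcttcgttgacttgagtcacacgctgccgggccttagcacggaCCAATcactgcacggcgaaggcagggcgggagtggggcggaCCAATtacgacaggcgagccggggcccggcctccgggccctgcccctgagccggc
Srebf2: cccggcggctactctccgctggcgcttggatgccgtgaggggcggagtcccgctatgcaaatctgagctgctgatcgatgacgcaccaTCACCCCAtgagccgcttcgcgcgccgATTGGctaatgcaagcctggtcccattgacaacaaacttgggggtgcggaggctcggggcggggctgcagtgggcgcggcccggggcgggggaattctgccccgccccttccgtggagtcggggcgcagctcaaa
Hsd17b7: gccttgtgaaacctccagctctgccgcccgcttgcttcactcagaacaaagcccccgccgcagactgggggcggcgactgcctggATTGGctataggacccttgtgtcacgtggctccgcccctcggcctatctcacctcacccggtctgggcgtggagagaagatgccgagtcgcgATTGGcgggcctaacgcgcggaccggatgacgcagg
The sterol element starts 137 bases before the annotated start in Hmgcs1, 177 before it in Msmo1 and 162 before it in Srebf2. Each of the 4 stretches holds at least 1 CCAAT box.

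Library totals lay between 10457492 and 20706412 estimated counts. Levels are CPM (counts scaled to a common library size, here with edgeR's TMM factors), and a gene was called higher or lower at a Benjamini-Hochberg adjusted p under 0.05 over the 12337 tested genes in edgeR's quasi-likelihood test. Of all genes tested, 14.0% were called higher and 9.61% lower in LLC blood against healthy blood, 29.6% higher and 31.7% lower in LLC tumor than in LLC blood, and 33.5% higher and 33.0% lower in LLC tumor than in healthy blood. LLC tumor 1 stood apart from the other tumor libraries: its chi-square per degree of freedom against them was 48.5 and 38.1, while LLC tumor 2 and 3 gave 6.95 between them, and its TMM factor was 0.798 against 0.968 to 1.07 elsewhere. Results that rest on it are given with and without it. A batch that coincided with a group could not be separated from it, since the labels name none. In bulk libraries fewer cells of a type and less RNA per cell cannot be told apart either.

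Most of the synthesis enzymes, 13 of 18, rose in the tumor against LLC blood, while Dhcr7, Tm7sf2 and Ebp fell and Acat2 and Mvd were not called. In LLC tumor against LLC blood, 13 of the 18 enzymes were higher and 3 lower (29.6% and 31.7% of all tested genes), with a median log2 fold change of 0.84 (range -0.70 to 3.27) against -0.03 over all tested genes. Without LLC tumor 1 the counts were 14 higher and 3 lower, with 8636 of all genes called in either direction. With plain library totals, which moved the median of all genes to -0.23, they were 11 higher and 4 lower (7869 of all genes called). In LLC tumor against healthy blood, 12 enzymes were higher and 3 lower (33.5% and 33.0% of all genes), with a median of 0.75 against -0.00. In LLC blood against healthy blood none of the 18 was called by edgeR (14.0% and 9.61% of all genes), and the median was -0.13 (range -0.62 to 0.28). An unadjusted p under 0.05 was found for 5 of the 18 and for 4536 of all 12337 tested genes. In that blood comparison DESeq2 called 3 enzymes, all lower, and limma-voom with quality weights called 1 higher and 5 lower. Over all genes DESeq2 called 3391 and limma-voom 5884 there, while edgeR called 1732 higher and 1185 lower. The tumor comparisons share the tumor libraries, and LLC blood enters 2 of the 3 comparisons, so their counts are not independent.

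**Figure D1:**
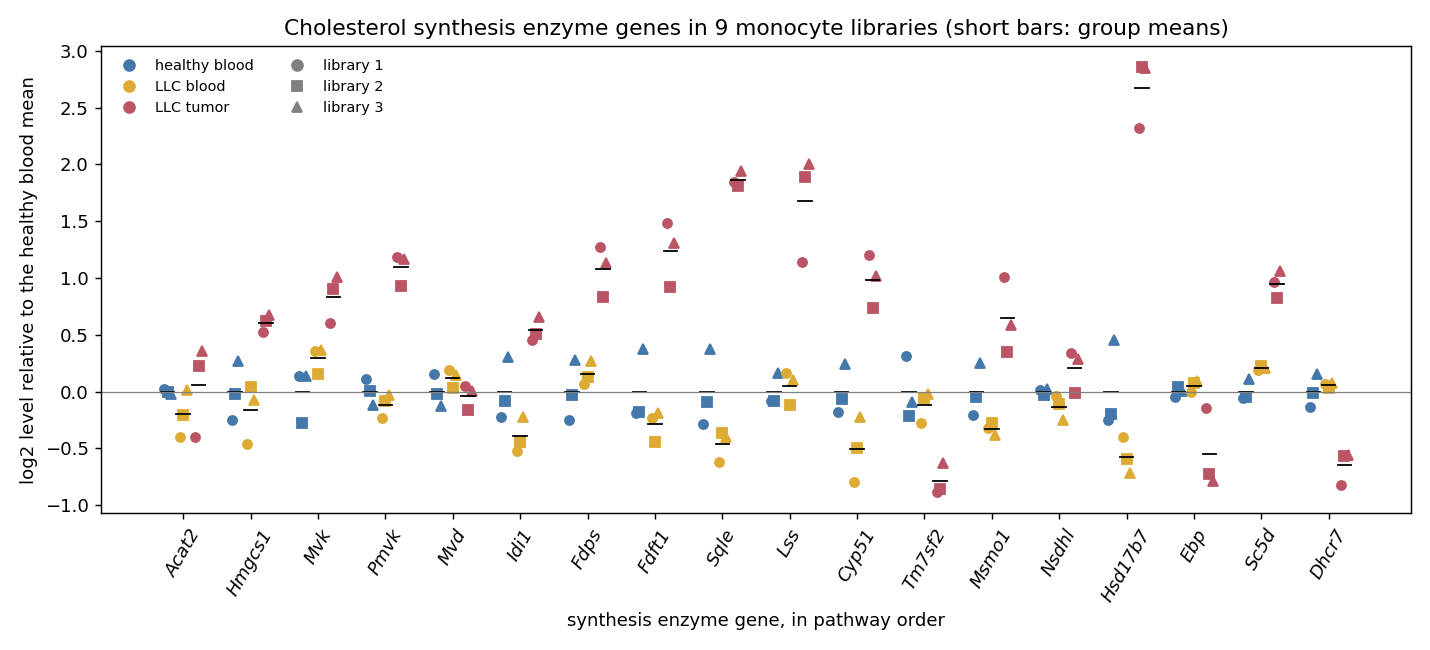
Levels of the 18 cholesterol synthesis enzyme genes in the 9 libraries, as log2 of the TMM-scaled CPM relative to the healthy blood mean of each gene (vertical axis), with genes in pathway order (horizontal axis). Points are libraries, short bars are means of 3, and the LLC tumor points of Sqle, Hsd17b7 and Fdft1 lie above all blood points while those of Dhcr7 and Ebp lie below all blood points.

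Hsd17b7, a reductase of the late pathway that also acts on estrone, had the largest change. It was at 2.63, 2.73 and 4.27 CPM in the healthy blood libraries, 2.36, 2.07 and 1.899 in LLC blood, and 15.6, 22.6 and 22.5 in the tumor. Each tumor library was above every blood library, and the level in tumor was 9.65-fold that in LLC blood (log2 fold change 3.27 ± 0.25 SE, edgeR adjusted p = 4.60e-06) and 6.29-fold that in healthy blood (2.65 ± 0.24, adjusted p = 1.09e-05). Its low level in blood means that few reads stand behind the denominator.

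Sqle, the squalene epoxidase and a rate-limiting step of the pathway, was at 15.1, 17.3 and 23.8 CPM in healthy blood, 11.999, 14.3 and 13.9 in LLC blood and 66.0, 64.4 and 70.6 in the tumor. The tumor libraries lay close together and far above both blood groups. The fold against LLC blood was 4.98 (log2 2.32 ± 0.16, adjusted p = 2.74e-06) and against healthy blood 3.57 (1.84 ± 0.16, adjusted p = 8.09e-06). Its neighbours in the pathway moved the same way. Fdft1, the squalene synthase, was at 23.9, 24.2 and 35.4 CPM in healthy blood, 23.3, 20.1 and 24.0 in LLC blood and 76.4, 51.7 and 67.7 in the tumor (log2 1.54 ± 0.19 against LLC blood, adjusted p = 9.00e-05). Lss, which closes the squalene epoxide into lanosterol, was at 6.02, 6.05 and 7.18 CPM in healthy blood, 7.18, 5.89 and 6.85 in LLC blood and 14.1, 23.7 and 25.6 in the tumor (log2 1.68 ± 0.22 against LLC blood, adjusted p = 1.32e-04). For both genes no tumor library overlapped a blood library. Counts of Fdft1 were not whole numbers in any of the 9 libraries and those of Lss in 6, so part of their reads was shared out by the authors' counting.

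Taken in pathway order, the enzymes up to squalene rose or did not pass the test. Of these 8 enzymes, 6 were higher and none lower in LLC tumor than in LLC blood (29.6% and 31.7% of all tested genes), with a median log2 fold change of 0.84. Acat2, the cytosolic thiolase that starts the pathway, was not called (9.30 to 9.54 CPM in healthy blood, 7.15 to 9.53 in LLC blood, 7.14 to 12.02 in LLC tumor), and its counts were not whole in any library. Without LLC tumor 1, the lowest of its tumor libraries, Acat2 was called higher (log2 0.49, adjusted p = 0.0111). Hmgcs1, which makes HMG-CoA, ran from 51.2 to 73.2 CPM in healthy blood, 44.2 to 62.3 in LLC blood and 87.6 to 97.1 in the tumor (log2 0.76 ± 0.15 against LLC blood, adjusted p = 0.00192). The mevalonate kinases Mvk and Pmvk rose by unequal amounts. Mvk ran from 4.62 to 6.17 CPM in healthy blood, 6.22 to 7.23 in LLC blood and 8.48 to 11.3 in the tumor (log2 0.55 ± 0.18 against LLC blood, adjusted p = 0.0226), and this call was lost in 6 of 17 alternatives. Pmvk ran from 13.8 to 16.2 CPM, 12.7 to 14.6 and 28.6 to 34.2 in the same order (log2 1.21 ± 0.11, adjusted p = 1.35e-05).

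Mvd, the decarboxylase that follows them, was the other enzyme not called: it ran from 39.0 to 47.6 CPM in healthy blood, 43.7 to 48.6 in LLC blood and 38.2 to 44.2 in the tumor (log2 -0.16 ± 0.10 against LLC blood, adjusted p = 0.187). With plain library totals it was called lower (-0.36, adjusted p = 0.0117). The next enzymes rose again. Idi1, the isomerase of the isoprene unit, ran from 34.5 to 50.01 CPM in healthy blood, 28.1 to 34.6 in LLC blood and 55.2 to 63.7 in the tumor (log2 0.93 ± 0.14 against LLC blood, adjusted p = 4.17e-04). Fdps, the farnesyl diphosphate synthase, ran from 31.9 to 46.0, 39.5 to 45.6 and 67.4 to 91.5 CPM (log2 0.93 ± 0.15, adjusted p = 5.25e-04). Against healthy blood, the rise of Idi1 and that of Hmgcs1 missed the threshold with plain library totals (adjusted p = 0.0814 and 0.0522).

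Of the 10 enzymes after squalene, 7 were higher and 3 lower in LLC tumor than in LLC blood (29.6% and 31.7% of all tested genes). Besides Sqle, Lss and Hsd17b7, those that rose were Cyp51, Msmo1, Nsdhl and Sc5d. Cyp51, the lanosterol demethylase, ran from 38.4 to 51.6 CPM in healthy blood, 25.1 to 37.3 in LLC blood and 72.5 to 100.2 in the tumor (log2 1.47 ± 0.18 against LLC blood, adjusted p = 7.85e-05). Msmo1, which oxidises the sterol's methyl groups, ran from 43.4 to 59.6, 38.4 to 41.2 and 63.6 to 100.5 CPM (log2 1.00 ± 0.17, adjusted p = 6.93e-04). Sc5d, a sterol desaturase, ran from 21.6 to 24.3, 25.7 to 26.4 and 40.02 to 47.0 CPM (log2 0.74 ± 0.09, adjusted p = 6.92e-05). These 3 genes showed no overlap between tumor and blood libraries. Nsdhl, a decarboxylating dehydrogenase that works with Msmo1, changed least: it ran from 15.8 to 16.4 CPM in healthy blood, 13.6 to 15.7 in LLC blood and 16.0 to 20.5 in the tumor (log2 0.34 ± 0.12 against LLC blood, adjusted p = 0.0266). This call did not hold in 5 of 17 alternatives, and against healthy blood Nsdhl was not called (log2 0.21, adjusted p = 0.131).

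The 3 enzymes that fell were all among the 10 after squalene, of which 7 rose. They were not neighbours in pathway order. Msmo1, Nsdhl and Hsd17b7, which rose, lie between Tm7sf2 and Ebp, and Sc5d, which also rose, lies between Ebp and Dhcr7. Dhcr7, the reductase that makes cholesterol from dehydrocholesterol, was at 14.0, 15.2 and 17.1 CPM in healthy blood, 16.1, 15.7 and 16.2 in LLC blood and 8.71, 10.4 and 10.4 in the tumor. It fell by 0.70 ± 0.12 on the log2 scale against LLC blood (adjusted p = 7.24e-04). Every tumor library was below every blood library. Tm7sf2, a sterol reductase acting after Cyp51, was at 9.61, 6.64 and 7.24 CPM in healthy blood, 6.36, 7.45 and 7.60 in LLC blood and 4.18, 4.26 and 5.001 in the tumor (log2 -0.67 ± 0.19, adjusted p = 0.0131). Ebp, the isomerase that moves a ring double bond, was at 54.9, 58.2 and 56.8 CPM in healthy blood, 56.4, 59.5 and 60.3 in LLC blood and 51.1, 34.3 and 32.9 in the tumor (log2 -0.58 ± 0.15, adjusted p = 0.00766). LLC tumor 1 was the nearest to blood in Ebp and the farthest from it in Dhcr7. Without that library the log2 fold changes were -0.78 for Ebp, -0.59 for Dhcr7 and -0.60 for Tm7sf2, and all remained called. Against healthy blood the same 3 genes were lower (log2 -0.65 for Dhcr7, -0.80 for Tm7sf2 and -0.53 for Ebp).

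In LLC blood against healthy blood, 4 of the 5 enzymes with an unadjusted p under 0.05 had lower values in LLC blood and 1, Sc5d, a higher one. Of all 12337 tested genes, 4536 had such a p in this comparison. Sqle had a log2 fold change of -0.48 ± 0.16 (edgeR adjusted p = 0.0553), Idi1 of -0.41 ± 0.14 (adjusted p = 0.0712), Cyp51 of -0.49 ± 0.17 (adjusted p = 0.0714) and Hsd17b7 of -0.62 ± 0.25 (adjusted p = 0.105). Sqle was called lower in 8 of 17 alternatives, Idi1 in 7 and Cyp51 in 5. Healthy blood 3 was the highest blood library for Sqle, Idi1, Cyp51 and Hsd17b7. Sc5d had a log2 fold change of 0.21 ± 0.09 (adjusted p = 0.121), and limma-voom called it higher. The largest positive value was that of Mvk (0.28 ± 0.18, adjusted p = 0.283).

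**Figure D2:**
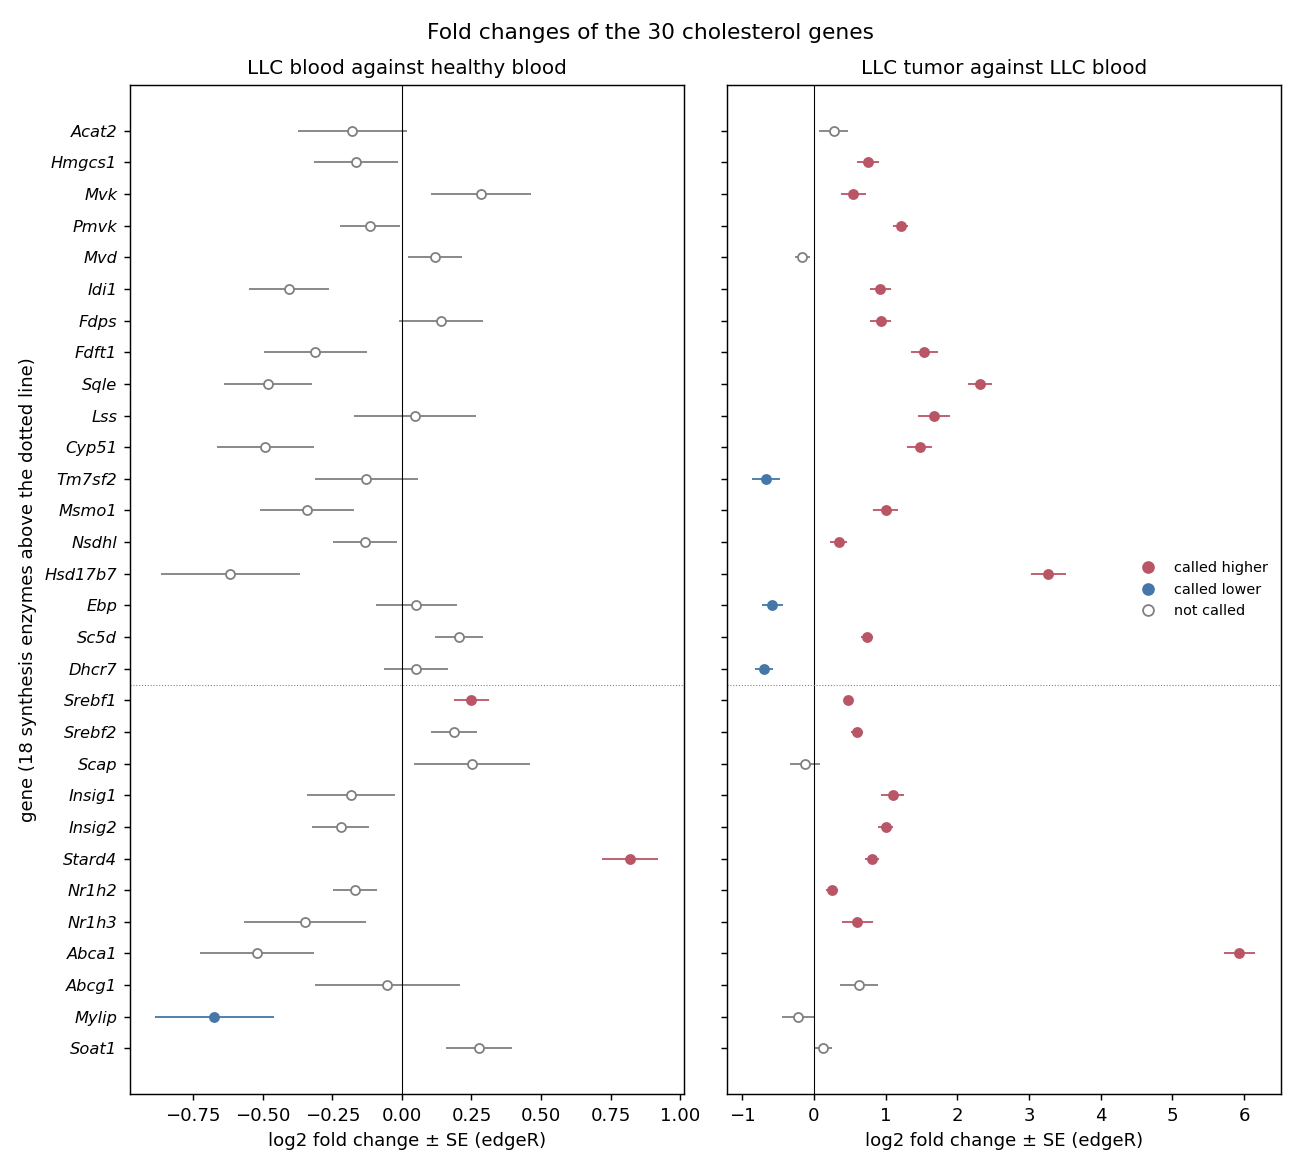
Log2 fold changes with SE from edgeR for the 30 genes, LLC blood against healthy blood (left) and LLC tumor against LLC blood (right), with the 18 enzymes above the dotted line. Filled points were called, red higher and blue lower; the left axis ends near 1 and the right one beyond 6, and only Srebf1, Stard4 and Mylip are filled on the left.

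Of the 5 regulator genes, Srebf1, Srebf2, Insig1 and Insig2 rose in LLC tumor against LLC blood and Scap was not called. Of the 12 genes that are not synthesis enzymes, 8 were higher and none lower in LLC tumor than in LLC blood (29.6% and 31.7% of all tested genes), and 7 were higher and 1 lower against healthy blood (33.5% and 33.0%). Without LLC tumor 1 the counts were 7 higher and 1 lower against LLC blood (8636 of all genes called in either direction). With plain library totals they were 6 higher and 1 lower (7869 of all genes called). In LLC blood against healthy blood 2 were higher and 1 lower (14.0% and 9.61%). That blood split was 1 higher and 4 lower under upper-quartile scaling, where 3217 of all genes were called in either direction.

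Srebf2, which encodes SREBP2, was at 158, 154 and 169 CPM in healthy blood, 188, 172 and 187 in LLC blood and 288, 250.6 and 292 in the tumor. The 3 groups did not overlap, and the rise in tumor was 0.60 ± 0.08 on the log2 scale against LLC blood (adjusted p = 1.91e-04), while the step between the blood groups was not called (0.19 ± 0.08, adjusted p = 0.137). Srebf1, which encodes SREBP1 and is itself an LXR target, was at 83.2, 87.1 and 91.5 CPM in healthy blood, 104, 105 and 102 in LLC blood and 139, 146 and 150.2 in the tumor. It rose in both steps, by 0.25 ± 0.06 in blood (adjusted p = 0.0211) and by 0.48 ± 0.06 in tumor against LLC blood (adjusted p = 1.52e-04). The blood call of Srebf1 was lost in 6 of 17 alternatives: with upper-quartile factors or library totals, and without healthy blood 1, healthy blood 2, LLC blood 2 or LLC blood 3. The counts do not separate the transcript forms of Srebf1.

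Scap, the escort protein of both SREBPs, was not called in any comparison. It ran from 35.0 to 41.5 CPM in healthy blood and 42.8 to 47.6 in LLC blood, and was at 26.2, 53.9 and 42.9 in LLC tumor. LLC tumor 1 was its lowest library of all 9, and without it Scap was called higher in LLC tumor than in healthy blood (log2 0.34, adjusted p = 0.0266). Both genes of the retention proteins rose in tumor. Insig1, itself an SREBP target, was at 51.2, 59.6 and 64.9 CPM in healthy blood, 51.3, 53.1 and 50.5 in LLC blood and 142, 92.6 and 97.6 in the tumor (log2 1.10 ± 0.16 against LLC blood, adjusted p = 2.54e-04, and 0.91 without LLC tumor 1). Insig2 was at 21.9, 21.0 and 22.6 CPM in healthy blood, 17.5, 19.8 and 18.9 in LLC blood and 43.1, 34.4 and 35.5 in the tumor (log2 1.00 ± 0.10, adjusted p = 3.12e-05).

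Stard4, a soluble carrier that moves cholesterol between membranes and an SREBP2 target, rose at each step. It was at 10.7, 10.9 and 11.3 CPM in healthy blood, 17.1, 19.3 and 21.7 in LLC blood and 34.3, 33.3 and 35.1 in the tumor. The 3 groups were well apart. The log2 fold change was 0.82 ± 0.10 in LLC blood against healthy blood (adjusted p = 7.39e-04) and 0.82 ± 0.10 in LLC tumor against LLC blood (adjusted p = 8.14e-05). Tumor against healthy blood gave 1.64 ± 0.10, a 3.11-fold difference (adjusted p = 1.18e-06). Srebf1 was also called higher in all 3 comparisons, but its blood call was weak, as given above. Tumor against healthy blood spans both steps, so a call there adds little to calls at each step. In single comparisons 14.0% (blood), 29.6% (tumor against LLC blood) and 33.5% (tumor against healthy blood) of all tested genes were called higher. How many of all genes were called higher in all 3 was not counted.

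**Figure D3:**
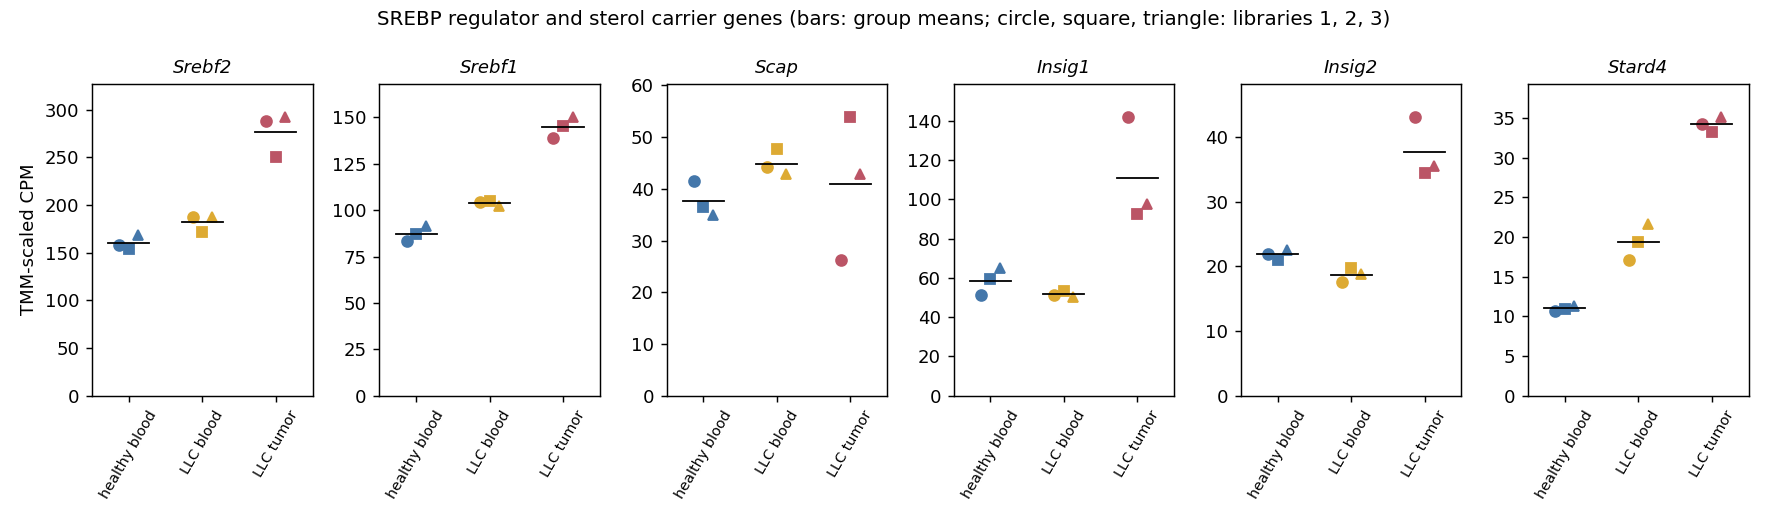
TMM-scaled CPM (vertical axes, linear from 0, one scale per gene) of the SREBP regulator genes and of Stard4 in the 3 groups (horizontal axes). Points are libraries and bars are means of 3; Stard4 and Srebf1 step up from group to group, and the Scap tumor libraries spread from 26.2 to 53.9 CPM.

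Abca1, which exports cholesterol and phospholipid to apolipoprotein A-I, had the largest change of the 30 genes. It was at 13.8, 12.7 and 9.61 CPM in healthy blood, 9.27, 6.999 and 8.89 in LLC blood and 643, 473 and 423 in the tumor. The tumor libraries were far above all blood libraries. The level in tumor was 61.2-fold that in LLC blood (log2 5.94 ± 0.22, adjusted p = 1.60e-07) and 42.6-fold that in healthy blood (5.41 ± 0.21, adjusted p = 1.65e-07), and without LLC tumor 1 the log2 values were 5.77 and 5.20. In LLC blood against healthy blood Abca1 was not called (log2 -0.52 ± 0.21, adjusted p = 0.0976), although the libraries did not overlap, and it was called lower in 5 of 17 alternatives.

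Abcg1, the exporter to HDL particles and also an LXR target, did not pass the test in any comparison. It was at 124, 104 and 92.4 CPM in healthy blood, 116, 85.7 and 107 in LLC blood and 235, 106 and 137 in the tumor. The tumor libraries overlapped both blood groups, with LLC tumor 1 alone above 200 CPM. It was not called against LLC blood (log2 0.63 ± 0.26, adjusted p = 0.0611) or healthy blood (0.58 ± 0.26, adjusted p = 0.0762), and the values without LLC tumor 1 were 0.26 and 0.16. Against LLC blood it was called higher in 5 of 17 alternatives.

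Mylip, the ligase that limits lipoprotein uptake, was lower in the tumor-bearing groups. It was at 32.0, 30.2 and 28.6 CPM in healthy blood, 20.5, 16.9 and 19.5 in LLC blood and 23.6, 13.5 and 11.97 in the tumor. No library of the tumor-bearing groups reached the lowest healthy one. Mylip fell by 0.67 ± 0.21 on the log2 scale in LLC blood (adjusted p = 0.0483) and by 0.90 ± 0.22 in LLC tumor against healthy blood (adjusted p = 0.00524). The blood call was lost without any 1 of the 6 blood libraries (log2 -0.73 to -0.60 over all alternatives). Tumor against LLC blood was not called (log2 -0.22 ± 0.22, adjusted p = 0.402), but was called lower without LLC tumor 1 (-0.55, adjusted p = 0.00322), and without that library the value against healthy blood was -1.27.

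The changes of the LXR genes themselves were small. Nr1h2, encoding the widely expressed LXR beta, was at 117, 109.7 and 108 CPM in healthy blood, 103, 98.7 and 96.8 in LLC blood and 129.6, 107 and 119 in the tumor. Nr1h3, encoding LXR alpha, which is found in macrophages and liver, was at 11.8, 14.2 and 11.6 CPM in healthy blood, 10.6, 7.97 and 10.9 in LLC blood and 20.1, 13.9 and 11.2 in the tumor. Both were called higher in LLC tumor than in LLC blood, Nr1h2 by 0.25 ± 0.08 (adjusted p = 0.0202) and Nr1h3 by 0.61 ± 0.22 (adjusted p = 0.0369). These calls were weak. That of Nr1h2 was lost in 4 of 17 alternatives (library totals, no filter on low counts, without LLC blood 2, without LLC blood 3). That of Nr1h3 was lost in 11, among them without LLC tumor 1, where the value was 0.38. Neither receptor gene was called in LLC tumor against healthy blood (log2 0.09 for Nr1h2 and 0.26 for Nr1h3) or in LLC blood against healthy blood (-0.17 and -0.35).

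Soat1, which esterifies cholesterol for storage in droplets, was at 235, 239 and 221 CPM in healthy blood, 258, 292 and 291 in LLC blood and 363, 261 and 297 in the tumor. It was called only in tumor against healthy blood (log2 0.41 ± 0.12, adjusted p = 0.0133), and this call was lost without healthy blood 3. Without LLC tumor 1, its highest library, the value was 0.24 (adjusted p = 0.0174). Its values in the other comparisons were 0.28 ± 0.12 in blood (adjusted p = 0.124) and 0.13 ± 0.12 in tumor against LLC blood (adjusted p = 0.367).

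**Figure D4:**
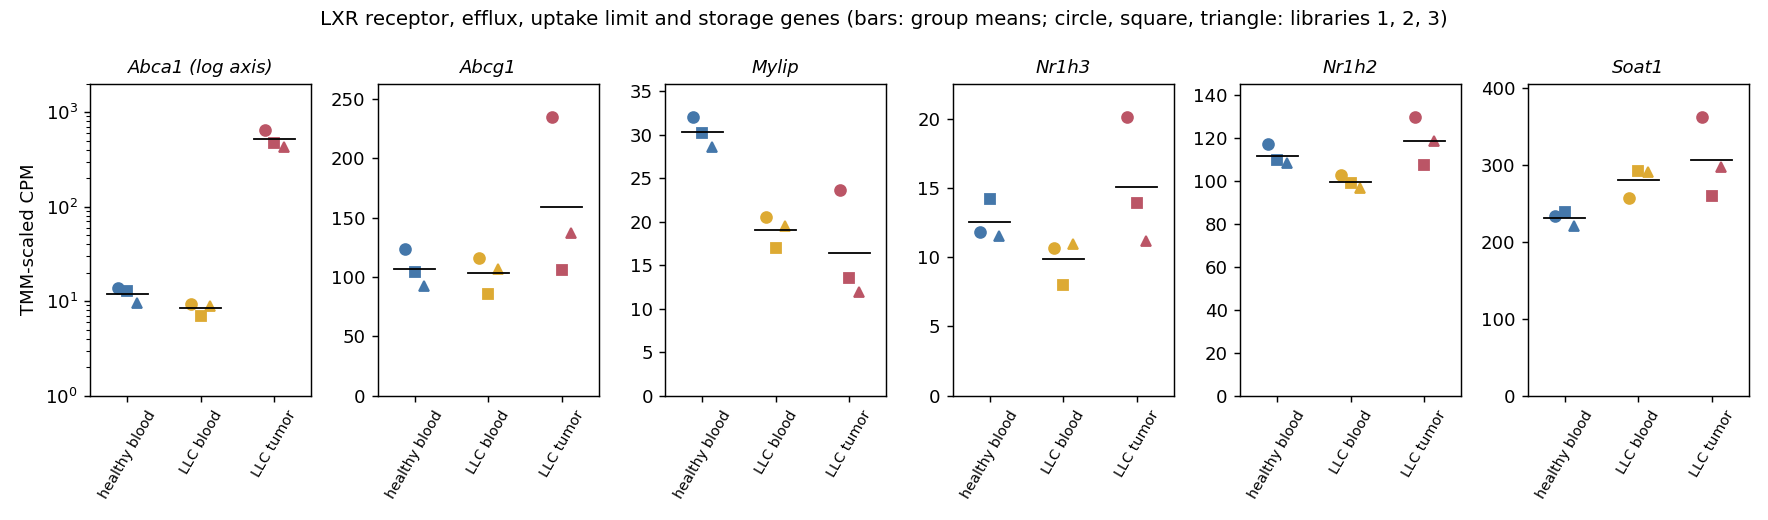
TMM-scaled CPM of the efflux genes, Mylip, the LXR genes and Soat1 in the 9 libraries by group. The Abca1 axis is logarithmic and the others are linear from 0. Points are libraries and bars means of 3. On this scale LLC tumor 1 is the highest tumor library in all 6 genes, and its low TMM factor (0.798) raises its values.

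Set side by side, synthesis and LXR-driven efflux did not change as opposite blocks. Relative to the healthy blood mean, the median enzyme stood at log2 0.78, 0.68 and 0.84 in the 3 tumor libraries and at -0.23, -0.10 and -0.03 in the LLC blood libraries. In the tumor libraries Abca1 stood at 5.76, 5.31 and 5.15 on that scale, Abcg1 at 1.15, -0.00 and 0.37, and Mylip at -0.36, -1.16 and -1.34. The tumor libraries thus combined a raised median of the synthesis enzymes with a high Abca1, while Abcg1 varied from library to library and Mylip was below its healthy level. Of the 3 efflux and uptake-limit genes, 1 was called higher and none lower in LLC tumor against LLC blood, where 13 and 3 of the 18 enzymes were. Of all tested genes 29.6% were called higher and 31.7% lower there. In LLC blood, all 3 had negative log2 values against healthy blood (Abca1 -0.52, Abcg1 -0.05, Mylip -0.67), and Mylip alone was called. Of all 12337 tested genes, 6296 had negative values in that comparison and 9.61% were called lower. With 3 genes on one side, no test of the difference between the programs was made.

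Other genes of the pathways were counted from lists written for the purpose. Of 14 further sterol enzymes and SREBP processing genes, 6 were higher and 4 lower in LLC tumor than in LLC blood (29.6% and 31.7% of all tested genes), with a median log2 fold change of 0.08. Genes that fell included Lbr, a nuclear membrane protein with the same sterol reductase activity as Tm7sf2 (-1.12 ± 0.09), Acss2, an acetyl-CoA synthetase (-0.94 ± 0.10), and Erlin1, a protein of the endoplasmic reticulum that restrains SREBP activation (-0.59 ± 0.06). In LLC blood against healthy blood 2 were higher and none lower (14.0% and 9.61% of all genes), among them Acly, which makes cytosolic acetyl-CoA (0.55 ± 0.11). Acly levels were also higher in tumor, at 443 to 592 CPM against 334 to 356 in LLC blood. In LLC tumor against healthy blood 7 were higher and 4 lower (33.5% and 33.0% of all genes).

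Of 12 fatty acid genes known as SREBP1 targets, 4 were higher and 1 lower in LLC blood against healthy blood (14.0% and 9.61% of all tested genes); the median log2 fold change was 0.48 (0.37 with Me1, at the floor of 3 counts in both groups, left out). The 4 were Fads1 (1.63 ± 0.37), Elovl6 (1.23 ± 0.27), Acaca (1.05 ± 0.16) and Scd2 (0.59 ± 0.14), and the lower one was Lpin1 (-0.45 ± 0.14). In the same comparison none of the 18 cholesterol enzymes was called. In LLC tumor against LLC blood 7 were higher and 3 lower (29.6% and 31.7% of all genes), with a median of 1.04. Scd1, a fatty acid desaturase, rose from 0.286 to 0.605 CPM in LLC blood to 17.3 to 53.1 in tumor (log2 6.61 ± 1.34, adjusted p = 0.00203), but healthy blood 2 held 18.2 CPM beside 0.528 and 1.02 in its group. Scd2 and Fads2 rose by 2.21 ± 0.14 and 3.34 ± 0.75, and Me1 was at 2.601 to 15.1 CPM in tumor. Against healthy blood 9 were higher and 3 lower (33.5% and 33.0% of all genes).

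Of 23 LXR partners and targets and genes of uptake and transport, 9 were higher and 10 lower in LLC tumor than in LLC blood (29.6% and 31.7% of all tested genes), with a median log2 fold change of -0.12. Scavenger receptors were among those that rose: Msr1 (2.72 ± 0.21) and Cd36 (2.66 ± 0.28). Cyp27a1, which makes an oxysterol ligand of LXR, fell by 2.14 ± 0.15, and Ch25h, another oxysterol enzyme, was at 6.67 to 13.9 CPM in tumor and at most 0.139 in LLC blood. In LLC blood against healthy blood 2 were higher and 5 lower, where 14.0% and 9.61% of all genes were (median -0.15, and -0.14 with Ch25h left out), led by Lpl (-3.32 ± 0.32), Cd36 (-2.54 ± 0.28), Apoe, an LXR target (-1.66 ± 0.26), and Gramd1b, a sterol transporter of the endoplasmic reticulum (1.16 ± 0.16). In LLC tumor against healthy blood 6 were higher and 10 lower (33.5% and 33.0% of all genes).

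Markers of the sort were present in every library: Itgam (CD11b) ran from 864 to 1429.6 CPM in blood and 3299.7 to 4659 in tumor, and Ly6c2 from 1029.7 to 1672 and 273 to 592. Markers of other cells moved with the tumor group, and so with the enzymes and Abca1. The summed level of 6 macrophage markers was 484 to 540.1 CPM in blood and 1099 to 1877 in tumor, with 5 called higher and 1 lower in LLC tumor than in LLC blood. The summed level of 5 fibroblast markers was 3.11 to 3.32 CPM in healthy blood, 2.66 to 337 in LLC blood and 268 to 813 in the tumor, with 2 called higher. The summed level of 5 epithelial or carcinoma markers was 1.81 to 8.23 CPM in blood and 13.2 to 43.8 in tumor, with 2 called higher and 1 lower, while Epcam and Krt19 were at 0.268 CPM or less in every library. The summed level of 4 endothelial markers was 1.36 to 1.84 CPM in blood and 11.4 to 17.4 in tumor. The part of these cells in the rise of the synthesis genes and Abca1 was not tested. LLC blood 1 was the blood library with the high fibroblast sum; Col1a1 was at 202 CPM in it and at 17.0 in LLC tumor 1, while Dcn was at 3.82 and 134.7 CPM and Lum at 2.64 and 104.6. In LLC blood 1 the median enzyme stood at log2 -0.23 relative to healthy blood and Abca1 at 9.27 CPM. Sums for NK cells (157 to 390.1 CPM in healthy blood, 22.5 to 40.3 in LLC blood, 1.34 to 3.82 in LLC tumor), T cells (23.2 to 93.2, 2.55 to 3.94 and 0.982 to 2.04) and dendritic cells (65.2 to 81.2, 22.6 to 36.8 and 6.78 to 8.43) were lower from group to group. In LLC blood these sums were lower, as Mylip was, while Stard4 was higher. The part of these cells in the changes of Mylip and Stard4 was not tested. The neutrophil sum was 163 to 199 CPM in healthy blood, 221 to 353 in LLC blood and 162 to 192 in tumor. Of its 6 markers, 2 were called higher and 0 lower in LLC blood against healthy blood (14.0% and 9.61% of all tested genes). Mmp8 alone gave 154 to 294 CPM, and Ltf and Ngp reached 21.5 and 22.0 CPM in LLC blood 2. The part of neutrophils in the blood changes was not tested. Sums were 2.04 to 8.58 CPM for platelets, 1.88 to 157 for B cells and 0.604 to 783 for erythroid cells over all libraries, and Ms4a1, Cd79a and Slc4a1 were at 0 in tumor.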

How the data were processed

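RNA-seq of sorted Ly6C-hi monocytes was analysed in 9 of the 31 samples of the series (3 per group); the other 22, chromatin assays, were not analysed here. RNA was extracted with TRIzol and made into TruSeq libraries read on a HiScanSQ sequencer, per the labels. The table deposited by the authors holds estimated counts (expected counts) per gene symbol, not normalized; 8.56% to 9.73% of the values in a library were not whole numbers, and they were rounded for testing. The submitters' processing notes name Trim Galore 0.6.7, STAR 2.6.1d, Salmon 1.9.0, edgeR and the build mm10, without roles. Heads of the blood columns carry BM, read as blood monocyte because the titles say blood. The deposited CPM table was not used.

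Counts were tested in R 4.3.3 with edgeR 4.0.16 (filterByExpr, TMM, glmQLFit and glmQLFTest) in 1 fit over all 9 libraries with the group as the only term; p-values were adjusted by Benjamini-Hochberg within each of the 3 comparisons, and the SE is the absolute log2 fold change over the square root of F. Library totals lay between 10457492 and 20706412, and their number limits the precision of low genes. Alternatives were other scalings, no filter, DESeq2 1.42.0, limma-voom with quality weights (limma 3.58.1), only the 6 libraries compared, a replicate block, leaving out each library, and adjusted p under 0.01. The scripts were tested on simulated data. All 30 genes are accounted for; values per library are given for called genes with the largest change in each role (up to 4 enzymes, and all genes in roles of 3 or fewer) and, beyond that rule, for the enzymes that fell and all regulators; from other lists up to 4 called genes with the largest change are named. Some genes of these other lists are not reported here by name. The members and lists were chosen with earlier results of these data known. Promoter windows come from RefSeq (GRCm38.p6); mm10 is that assembly.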

Additional observations from a re-analysis of the deposited data

How the results depend on the processing

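No value of the 30 genes that was called changed its sign under any of the 17 alternatives that refit them. In the 2 tumor comparisons the counts of called genes stayed within 1.5 times their reported values throughout; in blood they did not. For the enzymes in LLC blood against healthy blood, the count of 0 became 1 with DESeq2's size factors, 3 with upper-quartile factors, 3 with DESeq2, 6 with limma-voom, 4 with only the 6 libraries compared and 2 with the replicate block. It ran from 0 to 5 when single libraries were left out, with 2 without healthy blood 1 and 5 without LLC tumor 1. For the other 12 genes the count of 3 became 5 with upper-quartile factors, 10 with limma-voom, 9 with only the 6 libraries compared and 1 at an adjusted p under 0.01. It ran from 1 to 8 when single libraries were left out, with 1 without healthy blood 1, healthy blood 2, LLC blood 2 or LLC blood 3 and 8 without LLC tumor 1. Calls over all genes in the blood comparison moved too, from 1732 higher and 1185 lower in the main fit. In both directions together they were 2926 with DESeq2's size factors, 3217 with upper-quartile factors, 5884 with limma-voom and 4889 with only the 6 libraries compared. They were 5064 without LLC tumor 1, 1993 without healthy blood 1, 1873 without healthy blood 2, 1494 without LLC blood 2 and 1577 without LLC blood 3. Calls over all genes at an adjusted p under 0.01 are not given. LLC tumor 1 is in neither blood group and enters that comparison through the shared spread, the filter and the TMM scaling; without it the median log2 value of all genes in blood went from -0.01 to -0.06. Of 510 single-gene values per comparison, 49 gained and 12 lost a call in blood, 11 gained and 26 lost one in LLC tumor against LLC blood, and 7 gained and 3 lost one in LLC tumor against healthy blood.

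The replicate numbers are shared between groups but the labels tie them to nothing. Correlations of same-numbered deviations were 0.298, 0.158 and 0.0488 between the blood groups, -0.00691, 0.164 and -0.111 between LLC tumor and LLC blood and 0.0627, 0.0235 and 0.0878 between LLC tumor and healthy blood, so the numbers were not taken as pairs, and not every sample correlated best with its own number. With the block 2 enzymes were called in blood, as given above, and 16 in LLC tumor against LLC blood. Over all genes 2788 and 7455 were called in these 2 comparisons with the block.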
